A study of Homo sapiens with 7 samples.

Results

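SH-SY5Y is a human neuroblastoma cell line that carries extra copies of several large chromosome segments, and the regions described here are the 5-hydroxymethylcytosine (5hmC) peaks that lie on 4 of them. They are the long arm of chromosome 1 from position 143200000 (1q), the short arm of chromosome 2 up to 55000000 (2p), the whole of chromosome 7, and chromosome 17 from 45000000 (17q), in hg38. Peaks of the 6 deposited lists were joined wherever they overlapped or touched, and a merged region was a member if its midpoint lay on 1 of the segments. This gave 33710 members of 198010 merged regions on chromosomes 1 to 22, or 17.02%: 9537 on 1q, 6375 on 2p, 13541 on chromosome 7 and 4257 on 17q. The segments are those known as gained in this line, and no 5hmC value enters the rule, although they were proposed with earlier results of these data in view. The peak lists hold no copy number, so the gains themselves were not measured here, and more copies of a segment and more 5hmC per copy cannot be told apart.

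All cells had received a lentiviral vector that expresses a short hairpin RNA from a U6 promoter. In the control group (shNC, controls 1 to 3) the hairpin was a control sequence, and in the knockdown group (shTDP43, knockdowns 1 to 3) it was directed against TDP-43, the product of TARDBP, which binds RNA and DNA. Knockdown cells were kept as a stable line under puromycin, and the labels do not say whether replicates were separate cultures, so p-values measure the spread between these libraries, which may be technical. 5hmC was measured by hMe-Seal, in which the base is tagged with a modified glucose and biotin, and tagged genomic DNA is pulled down and sequenced. List length ran from 117949 peaks (control 1) to 157157 (control 2). The number of reads per library was not known, and the lists carry neither TDP-43 levels nor expression, so the knockdown and the cell type were not checked from them.

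5hmC is made from 5-methylcytosine by the TET dioxygenases. It is an intermediate of active demethylation and also a lasting mark, abundant in neurons, that is found in the bodies of transcribed genes and at enhancers more than at the CpG-rich starts of active genes. Gain of 17q is the most frequent chromosome change of neuroblastoma, 2p carries MYCN and ALK, and gains of 1q and of whole chromosome 7 also recur in this tumour.

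The promoters of 8 segment genes are shown first, because a peak of at least 1 library overlapped them and their genes were either called between the groups or belonged to a list of neuroblastoma and neuronal genes. Each line gives the 250 bases before the first listed RefSeq start (GRCh38.p14), 5′ to 3′ along the transcript, with every CG dinucleotide in capitals.
CRABP2 promoter, chr1:156705785-156706034, minus strand: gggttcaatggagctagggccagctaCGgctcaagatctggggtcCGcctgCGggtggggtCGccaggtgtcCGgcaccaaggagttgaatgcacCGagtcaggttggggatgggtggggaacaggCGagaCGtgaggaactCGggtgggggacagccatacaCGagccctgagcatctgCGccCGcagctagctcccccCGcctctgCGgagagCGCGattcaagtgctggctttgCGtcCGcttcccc
PCARE promoter, chr2:29074524-29074773, minus strand: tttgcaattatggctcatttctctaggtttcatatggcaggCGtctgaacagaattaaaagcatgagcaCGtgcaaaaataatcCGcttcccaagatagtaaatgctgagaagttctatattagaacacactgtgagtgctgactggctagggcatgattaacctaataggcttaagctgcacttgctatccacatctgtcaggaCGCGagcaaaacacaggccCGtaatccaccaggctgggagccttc
MDM4 promoter, chr1:204516156-204516405, plus strand: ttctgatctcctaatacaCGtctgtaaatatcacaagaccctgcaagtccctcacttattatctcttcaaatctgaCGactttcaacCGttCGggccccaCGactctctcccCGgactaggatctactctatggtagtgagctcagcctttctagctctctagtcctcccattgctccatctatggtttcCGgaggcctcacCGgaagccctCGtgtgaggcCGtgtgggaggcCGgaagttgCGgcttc
NBAS promoter, chr2:15561335-15561584, minus strand: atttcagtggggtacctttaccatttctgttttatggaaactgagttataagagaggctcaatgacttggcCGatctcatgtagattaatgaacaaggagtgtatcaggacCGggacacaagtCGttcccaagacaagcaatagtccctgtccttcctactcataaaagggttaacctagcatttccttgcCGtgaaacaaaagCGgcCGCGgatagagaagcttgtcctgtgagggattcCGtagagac
ALK promoter, chr2:29921587-29921836, minus strand: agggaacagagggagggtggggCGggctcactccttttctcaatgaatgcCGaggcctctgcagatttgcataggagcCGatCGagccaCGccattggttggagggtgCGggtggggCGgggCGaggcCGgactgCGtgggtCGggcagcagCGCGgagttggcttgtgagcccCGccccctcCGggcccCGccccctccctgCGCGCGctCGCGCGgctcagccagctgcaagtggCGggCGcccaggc
POMC promoter, chr2:25168581-25168830, minus strand: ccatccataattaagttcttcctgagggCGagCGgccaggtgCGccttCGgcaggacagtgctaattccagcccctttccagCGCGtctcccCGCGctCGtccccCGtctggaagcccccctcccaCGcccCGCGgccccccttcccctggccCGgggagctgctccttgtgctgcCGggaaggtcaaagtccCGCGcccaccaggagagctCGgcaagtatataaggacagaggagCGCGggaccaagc
DDC promoter, chr7:50565406-50565655, minus strand: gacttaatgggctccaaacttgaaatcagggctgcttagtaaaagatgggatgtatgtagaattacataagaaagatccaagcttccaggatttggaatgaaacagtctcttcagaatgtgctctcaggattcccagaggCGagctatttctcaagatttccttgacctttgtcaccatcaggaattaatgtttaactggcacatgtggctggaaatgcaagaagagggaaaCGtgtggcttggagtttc
NPY promoter, chr7:24283940-24284189, plus strand: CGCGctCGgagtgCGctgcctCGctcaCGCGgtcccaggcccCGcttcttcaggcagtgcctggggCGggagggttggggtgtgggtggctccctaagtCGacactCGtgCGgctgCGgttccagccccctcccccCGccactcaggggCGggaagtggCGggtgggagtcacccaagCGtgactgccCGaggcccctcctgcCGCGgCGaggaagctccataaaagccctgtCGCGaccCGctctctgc

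The promoters of CRABP2 (18 CG), PCARE (6 CG), NBAS (8 CG) and NPY (24 CG) lay under a peak in 6 of 6 libraries. That of POMC, the precursor of ACTH and endorphins, did so in controls 1 and 2 alone, with 20 CG. ALK, with 24 CG, had a promoter peak in control 3, and MDM4, an inhibitor of p53 with 12 CG, had one in control 1, so neither can be set against a replicate. DDC, which encodes the decarboxylase that makes dopamine, has 2 CG in these bases, and its promoter lay under a peak in 3 of 3 knockdown libraries and in 0 of 3 control libraries. In the authors' deposited lists the fold enrichment of those DDC peaks was 4.02, 4.80 and 5.27. Over all 2169 segment promoters with a sequence, taken as 300-base windows, 252 had a peak in at least 1 library and 103 in all 6. The 103 held a median of 10 CG in the 250 bases and the 1917 without any peak held 17. The rest of chromosomes 1 to 22 showed the same order, 9 CG against 18. At least 1 CG is present in 96.9% of all 15101 promoters matched, so its presence sets none of them apart.

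On the segments 8 of 191 microRNA hairpins (4.19%) lay under a peak in all 6 libraries, against 56 of 1270 elsewhere (4.41%). Of these, 3 were on chromosome 7 and 5 on 17q. Mature sequences of 4 of these hairpins are shown from RefSeq with the seed, bases 2 to 8, in capitals. MIR25 and MIR106B lie in MCM7, a subunit of the replicative helicase, and MIR338 and MIR3065 lie on opposite strands in AATK, a kinase gene of neurons.
hsa-miR-25-3p: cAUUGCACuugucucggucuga
hsa-miR-106b-5p: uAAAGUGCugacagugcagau
hsa-miR-338-3p: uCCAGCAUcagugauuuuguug
hsa-miR-3065-5p: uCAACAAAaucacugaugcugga

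No seed is shared among these 4. The peaks do not carry a strand, so 5hmC over MIR338 cannot be separated from that over MIR3065.

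The 4 segments carried more 5hmC peaks per megabase than the rest of the autosomes in every library. On the segments together the 3 control libraries had 57.0, 76.2 and 62.1 peaks per Mb and the 3 knockdown libraries 69.9, 60.2 and 64.2, in the order of their numbers, and on the rest it was 40.4, 53.7 and 43.3 in the controls and 48.7, 40.8 and 44.5 in the knockdowns. The mean was 64.9 ± 7.03 (SD, n = 6) on the segments and 45.2 ± 5.12 on the rest. Control 2, which has the longest list, was highest in both, and the levels of the groups overlapped. Peaks were placed by their midpoint, and length was counted in 100-kb windows that lay in a 1-Mb bin with a peak or a RefSeq gene, which gives 354.5 Mb for the segments and 2386.3 Mb for the rest.

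Among 25 blocks, the 4 segments and the remaining 21 chromosomes or chromosome parts, 17q had rank 1 at 81.1 ± 4.91 peaks per Mb, 2p rank 2 at 81.0 ± 7.69, 1q rank 3 at 60.7 ± 6.93 and chromosome 7 rank 5 at 58.1 ± 7.60 (SD, n = 6 for each). 17q and 2p do not differ beyond their spread, 2p being the denser in 4 of 6 libraries. The means of 1q, chromosome 10 (58.9 ± 5.56) and chromosome 7 lie within their SDs of each other, but 1q was denser than chromosome 7 in every library. The order of chromosome 10 against either of them varied by library. Chromosome 10 is not 1 of the 4 segments, so a density of this size was not limited to them. The parts of the same chromosomes outside the segments were lower, with 55.7 ± 5.33 for chromosome 1, 44.9 ± 6.12 for chromosome 2 and 43.5 ± 3.85 for chromosome 17. Chromosome 21 was lowest at 33.7 ± 4.69.

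**Figure D1:**
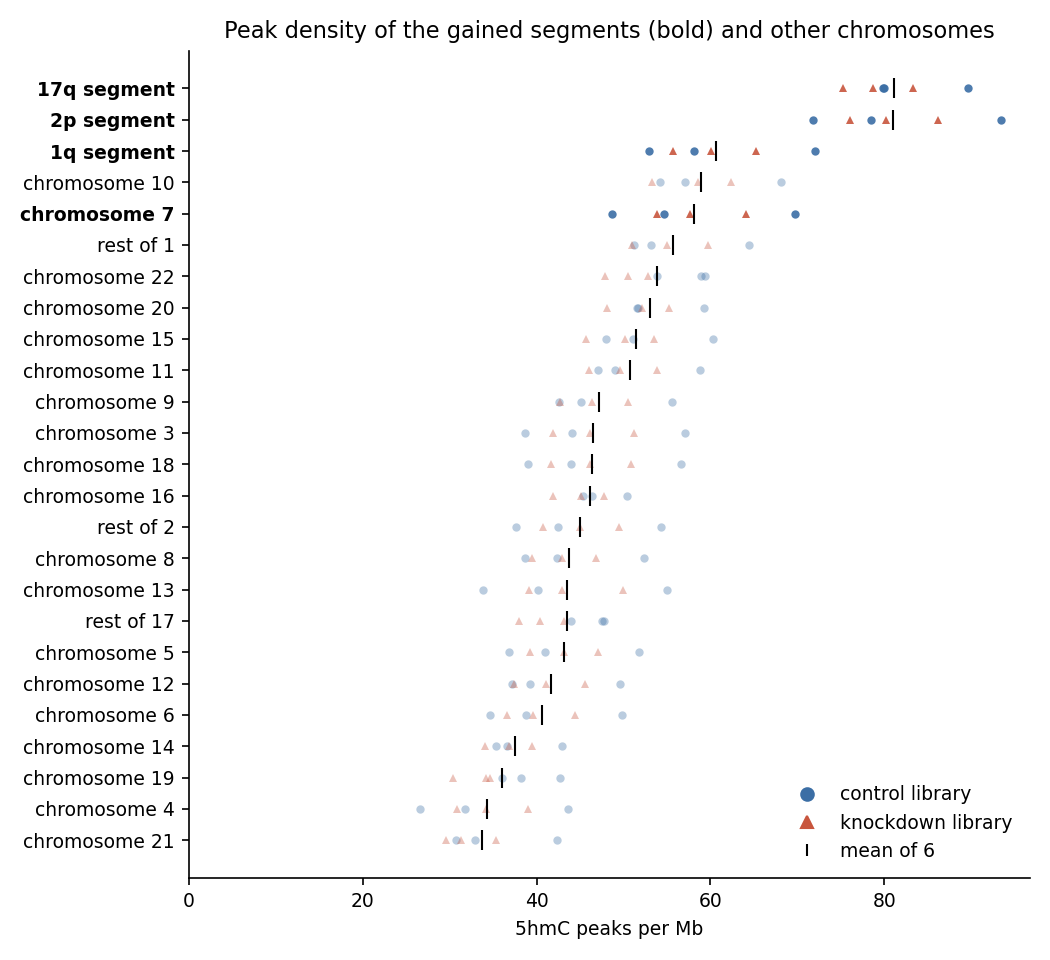
Peaks per Mb (x axis) for the 4 segments, in bold, and 21 other chromosomes or chromosome parts, ordered by mean, with circles for the 3 control libraries, triangles for the 3 knockdown libraries and a tick for the mean of 6. The 17q and 2p segments lie apart from the other blocks, with means of 81.1 and 81.0, while 1q and chromosome 7 lie beside chromosome 10.

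Density was next expressed as the ratio of segment to rest within each library, which sets both against the same list. For all 4 segments together the control libraries had ratios of 1.41, 1.42 and 1.43 and the knockdown libraries 1.44, 1.48 and 1.44, with a mean of 1.44 ± 0.0228 (SD, n = 6). The mean ratio was 1.34 ± 0.0178 on 1q, 1.79 ± 0.0432 on 2p, 1.28 ± 0.0435 on chromosome 7 and 1.80 ± 0.112 on 17q. All were above 1 in 6 of 6 libraries, and the two-sided exact sign-flip permutation test gave p = 0.03125 for each, 0.03125 after Benjamini-Hochberg adjustment over 5 tests, the smallest p that 6 libraries can give. Of the 21 other blocks 7 were also above 1 in 6 of 6 libraries (the rest of chromosome 1 and chromosomes 9, 10, 11, 15, 20 and 22), with a highest mean ratio of 1.33. Chromosomes 4, 5, 6, 8, 12, 14 and 21 were below 1 in every library. A sign shared by all libraries therefore does not set the segments apart. The 17q ratio ran in the reverse order of list length, from 1.98 in the shortest list (control 1) to 1.67 in the longest (control 2), so list length moves with it, and its part in the ratio was not tested. All 6 libraries come from 1 cell line, so this test covers repeatability between libraries and not other sources of variation between chromosomes. Against the rest of chromosomes 1, 2 and 17 alone the ratio for all segments was 1.34.

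The segments differ in gene content, from 5.00 protein-coding genes per Mb on 2p to 11.7 on 17q. Across the 21 other blocks, density and gene number per Mb were weakly related (Pearson r = -0.10, Spearman rho = 0.19, given as a description, since the blocks share libraries). The comparison was therefore repeated within 6 classes of coding-gene number per 1-Mb window, using the rest of chromosomes 1 to 22 as the standard. The standardised ratio was 1.38 ± 0.0264 for all segments, 1.26 ± 0.0358 for 1q, 1.79 ± 0.0484 for 2p, 1.26 ± 0.0370 for chromosome 7 and 1.63 ± 0.0450 for 17q (SD, n = 6). It was above 1 in 6 of 6 libraries in each case (exact sign-flip permutation p = 0.03125, adjusted 0.03125). The 21 other blocks were not standardised in this way, so these p-values cannot be set against a background. The largest move was on 17q, from 1.80 to 1.63.

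**Figure D2:**
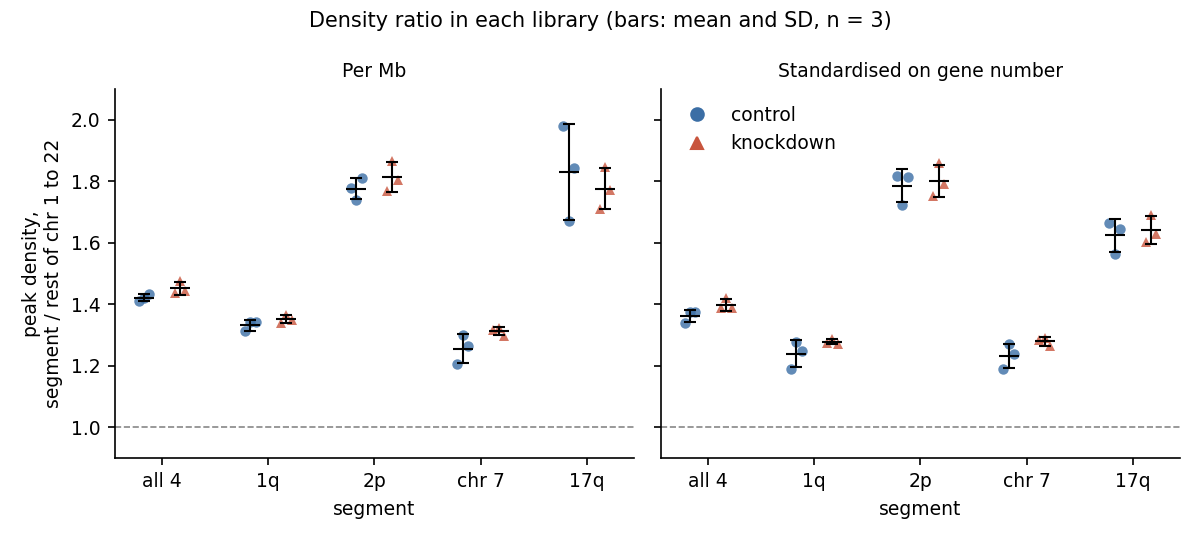
Ratio of peak density, segment over rest of chromosomes 1 to 22 (y axis, starting at 0.9; dashed line at 1), for all 4 segments together and for each, per Mb on the left and standardised on gene number on the right, with 1 symbol per library and bars for the mean and SD of 3. Every library lies above 1 in every column, and control and knockdown symbols overlap in each single segment.

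As a ratio, the excess was largest where there were fewest genes, and as a difference it was largest with 1 to 2 genes, at 28.9 peaks per Mb against 23.2 with 0 genes. In windows with 0 coding genes the segments held 41.5 ± 10.2 peaks per Mb and the rest 18.3 ± 5.17, a ratio of 2.29 ± 0.0858 (SD, n = 6). The ratio was 1.73 in windows with 1 to 2 genes, 1.43 with 3 to 5, 1.24 with 6 to 10, 1.12 with 11 to 20 and 1.20 with over 20, and it was above 1 in every library in each class. The most gene-rich class was not alike across segments. It held 90.6 ± 4.63 peaks per Mb on 17q and 35.5 ± 3.19 on 1q, the second of which is below the 47.6 ± 5.05 of the rest. The 0-gene class is made up of 33.0 Mb on the segments, so its ratio rests on few windows. The class also includes counted windows that were empty or nearly so. In the rest, the window centred at 123.5 Mb of chromosome 1 had 0.667 mean peaks per Mb in the controls and 0 in the knockdowns. On the segments, that centred at 60.5 Mb of chromosome 7 had 0 in both. The part of such windows in the ratio was not tested.

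**Figure D3:**
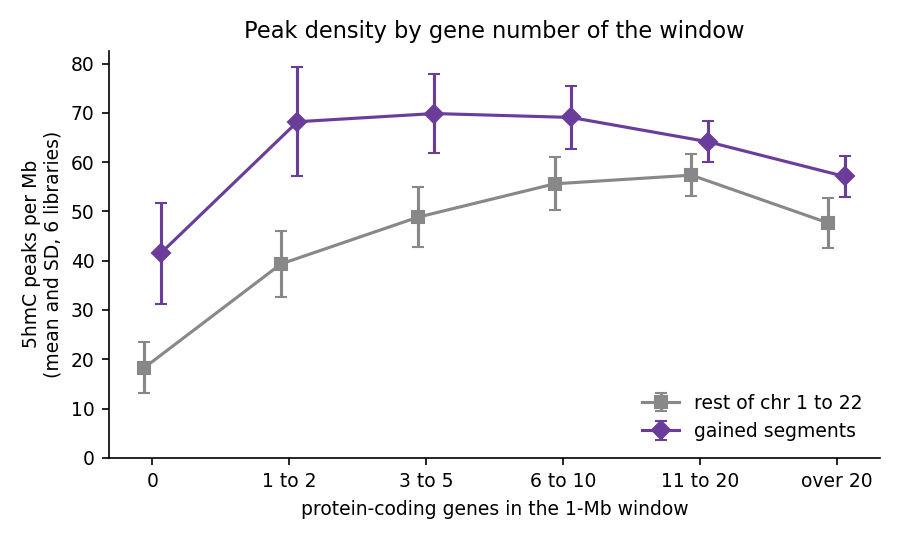
Mean peaks per Mb and SD over 6 libraries (y axis) by number of protein-coding genes in the 1-Mb window (x axis), for the gained segments (diamonds) and the rest of chromosomes 1 to 22 (squares). The lines are farthest apart in relative terms at 0 genes, 41.5 against 18.3, and closest at 11 to 20 genes, 64.1 against 57.4.

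The 1q, 2p and 17q segments have a border inside their chromosome. At the 2p border the 5 Mb inside held 39.7 ± 9.001 peaks per Mb and the 5 Mb outside 30.2 ± 5.37, higher inside in 6 of 6 libraries. At the 17q border the order was opposite, with 47.9 ± 3.37 inside and 54.1 ± 5.98 outside, higher inside in 0 of 6 libraries, although the inner stretch has 82 coding genes and the outer 182. Over 20 Mb each way both were higher inside in 6 of 6 libraries, with 71.9 ± 9.17 against 47.2 ± 5.05 at 2p and 67.1 ± 5.43 against 47.0 ± 3.804 at 17q (SD, n = 6). The outer stretch at 17q ran from 23000001 to 45000000, past uncounted windows without a peak or gene. Counted 1-Mb windows beside these were almost empty, at 0 to 0.667 mean peaks per Mb. That stretch has 375 coding genes against 217 inside. The 1q border lies beside the centromere. Over 5 Mb of counted length its inner side held 12.1 ± 2.28 and its outer side 0.933 ± 0.561 peaks per Mb, higher inside in 6 of 6 libraries. Over 20 Mb the inner side held 34.4 ± 2.41 and the outer side 32.0 ± 3.67, higher inside in 5 of 6 libraries. The outer 20 Mb ran from 106200001 to 143200000, past uncounted windows. Counted 1-Mb windows centred at 120.5 to 125.5 Mb were almost empty there, at 0 to 1.33 mean peaks per Mb. Their part in these values was not tested.

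The nearest member inside the 2p border (chr2:54999411-55000556) lies in RTN4, a gene for an inhibitor of axon growth, and was found in control 2 and knockdowns 2 and 3. The next region outside (chr2:55006280-55007079) also lies in RTN4 and was found in 2 control and 2 knockdown libraries. Just inside 17q a member at chr17:45006879-45007443 was found in 6 of 6 libraries, and just outside it the region at chr17:44987962-44988794 was found in 3. The borders are round positions, and where copy number changes in these cells was not measured here.

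**Figure D4:**
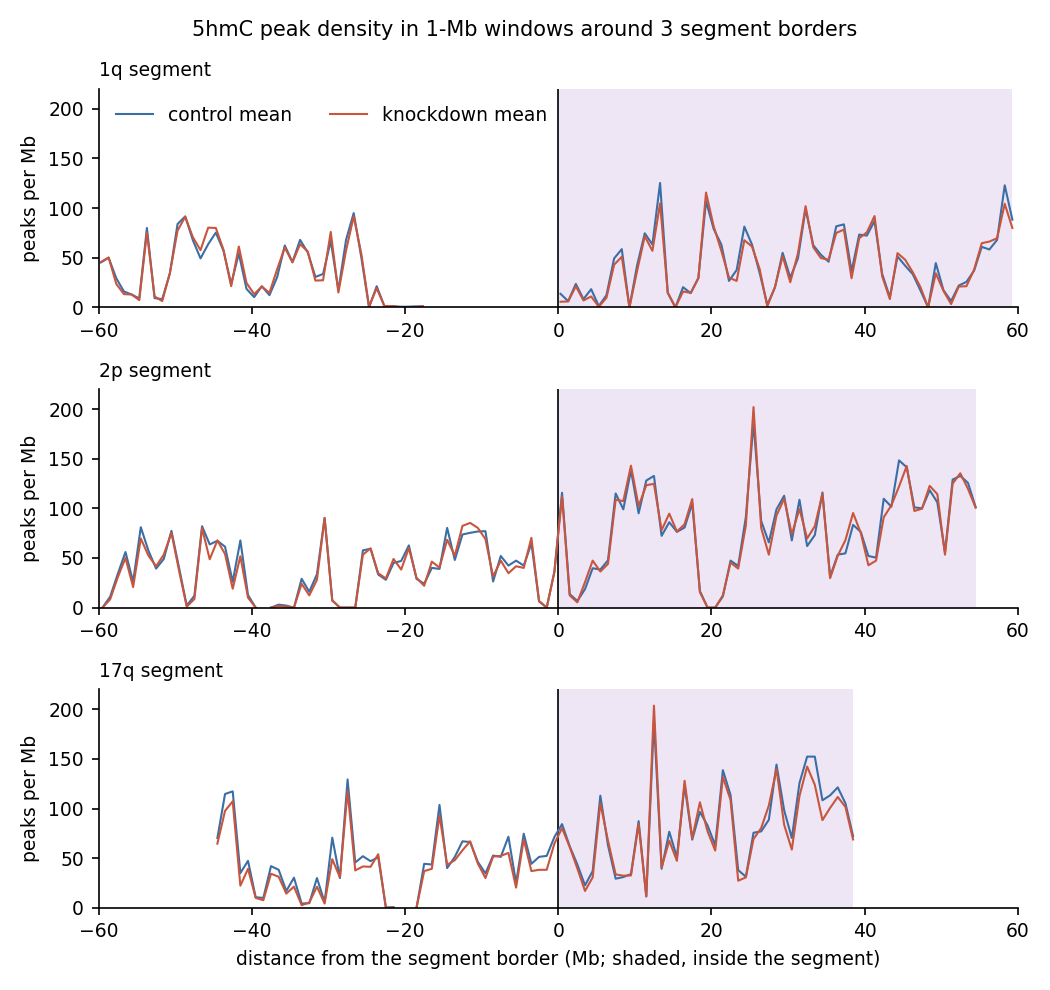
Mean peaks per Mb of the 3 control and 3 knockdown libraries (y axis) in 1-Mb windows by distance from the border of the 1q, 2p and 17q segments (x axis, Mb; shaded side inside the segment). Density rises and falls by window on both sides of each border, and the control and knockdown lines run close together.

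Densest of all segment windows was 57 to 58 Mb of 17q (chr17:57000001-58000000), which holds the whole of MSI2, an RNA-binding protein of neural progenitors, and had 191, 188 and 187 peaks in the controls and 209, 192 and 210 in the knockdowns. On 2p it was chr2:29000001-30000000 with ALK, the receptor tyrosine kinase that is mutated in neuroblastoma, and with PCARE (175, 198 and 186 peaks in the controls, 203, 194 and 209 in the knockdowns). On chromosome 7 it was chr7:133000001-134000000 with EXOC4, a subunit of the exocyst, at 189 ± 25.7 peaks, and on 1q chr1:245000001-246000000 with KIF26B, at 188 ± 9.79 (SD, n = 6). Each segment also held sparse windows. A 1-Mb window of chromosome 7 rich in olfactory receptor genes (chr7:144000001-145000000) had 1 peak in control 1 and none in the other lists, and the window beside the densest of 17q (chr17:56000001-57000000, with NOG and TRIM25) had 11.5 ± 1.22.

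Members were found in all 6 libraries in 38.8% of cases, against 35.1% of the regions on the rest, with 44.6% on 17q, 41.5% on 2p, 37.8% on 1q and 36.4% on chromosome 7. Their median width was 598 bp against 580 bp. Protein-coding genes held 59.1% of members and lncRNA genes a further 11.05%, and 29.9% lay outside both, while the rest had 58.2%, 11.12% and 30.7%. The 2p segment differed in that 50.5% of its members lay in coding genes and 17.5% in lncRNA genes. The share of autosomal peaks that lay on the segments was 17.6% ± 0.230 (SD, n = 6).

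The longest member found in all 6 libraries was 14899 bp long, at chr1:163169372-163184270 in RGS5, a regulator of G-protein signalling, and a second of 10738 bp lay next to it. On 17q it was 8269 bp across CYB561 (chr17:63433766-63442034), the cytochrome that supplies electrons in catecholamine vesicles. On 2p it was 7477 bp in HPCAL1 (chr2:10355513-10362989), a neuronal calcium sensor gene, and on chromosome 7 it was 7298 bp in MAD1L1 (chr7:2103388-2110685), a spindle checkpoint gene. Members over 5 kb numbered 49 (0.145% of members), against 179 regions on the rest (0.109%).

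Coverage, the percent of a gene's length under peaks, was also higher on the segments. For coding genes of at least 5 kb the median was 2.78% on the segments and 1.91% on the rest. The mean was 5.03% ± 0.504 on the segments and 3.88% ± 0.444 on the rest (SD over 6 libraries). At least 20% was covered in 88 of 2258 segment genes (3.90%) and in 326 of 13914 others (2.34%). On 2p 10.98% of genes had no peak in any list, against 23.6% on 17q, 27.0% on chromosome 7, 30.5% on 1q and 26.9% on the rest.

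The most covered gene of the segments was CYB561 on 17q, with 76.3%, 72.1% and 69.1% covered in the control libraries and 65.2%, 63.6% and 66.7% in the knockdown libraries, rank 3 among all genes. It was followed on 17q by CYGB, a globin gene, at 48.4% ± 7.71 and by PRCD, which overlaps CYGB and shares its peaks. KCNH2, a potassium channel gene, led chromosome 7 at 57.0% ± 4.20, ahead of LFNG, a Notch-modifying glycosyltransferase, at 49.5% ± 3.58 (SD, n = 6). CALM2, a calmodulin gene, led 2p at 44.5% ± 5.89, ahead of CDC42EP3 at 36.8% ± 3.33. PROX1, a homeobox factor of neural and lymphatic development, led 1q at 40.3% ± 5.87, ahead of RGS4 at 38.5% ± 8.43. None of these 9 genes was called between the groups (limma adjusted p from 0.204 for PROX1 to 0.992 for LFNG).

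The share of segment promoters under a peak was 7.92% ± 1.11, against 6.401% ± 1.10 on the rest (SD, n = 6). The controls had ratios of 1.23, 1.19 and 1.18 and the knockdowns 1.21, 1.36 and 1.30, above 1 in 6 of 6 libraries (two-sided exact sign-flip permutation p = 0.03125). Knockdown and control ratios overlapped (exact permutation p = 0.2). On 1q the share was below that of the rest in control 3 (6.603% against 6.70%), knockdown 1 (5.88% against 5.99%) and knockdown 3 (5.402% against 5.51%).

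Genes known from neuroblastoma or neurons were taken from a list of 63 on the segments, 47 of which were covered enough to be tested. Of the 63, 13 had no peak in any list, among them MYCN, the oncogene of 2p, its antisense gene MYCNOS, the differentiation inhibitor ID2, and TWIST1, HOXA9, NME1, IGF2BP1 and PHB1. A gene without a called peak can still carry 5hmC. Coverage was high in ALK, with 16.4%, 19.3% and 16.96% in the controls and 20.7%, 18.3% and 21.3% in the knockdowns. It was 24.3% ± 2.28 in DNMT3A, a DNA methyltransferase, 26.2% ± 1.76 in EGFR, 28.9% ± 1.504 in SEPTIN9 and 31.6% ± 2.05 in MSI2 (SD, n = 6), and the groups overlapped in each of these 5 genes. BRAF and SEMA3A were at 3.08% and 2.85%.

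Between knockdown and control, the excess of peaks on the segments differed little. The log2 ratio of segment to rest was higher by 0.03 in the knockdown for all segments together, and the 3 knockdown libraries (1.44 to 1.48) lay just above the 3 controls (1.41 to 1.43). The two-sided exact permutation test gave p = 0.1, the smallest that 3 against 3 can give, and 0.5 after Benjamini-Hochberg adjustment over 5 tests. Among the 25 blocks 4% had ratios that did not overlap between the groups, and none of the 4 single segments was among them. The log2 differences were 0.02 on 1q (p = 0.3, adjusted 0.5), 0.03 on 2p (p = 0.5, adjusted 0.625), 0.06 on chromosome 7 (p = 0.2, adjusted 0.5) and -0.04 on 17q (p = 0.7, adjusted 0.7), by the same exact permutation test. The SD within groups was 0.02 to 0.10 on the same scale, and no threshold below 0.1 could have been passed. Leaving out 1 library moved each difference by over 1.5 times, to 0.01811 for all segments and 0.008565 on 2p without knockdown 2, and to 0.01093 on 1q and 0.03449 on chromosome 7 without control 1. On 1q it was 0.01403 without knockdown 2. On 2p it was 0.01503 without control 2 and 0.04709 without knockdown 1. On 17q it was -0.1066 without control 2, -0.01537 without knockdown 1, -0.06987 without knockdown 2 and 0.01677 without control 1.

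Peak height differed less between segments and rest than peak number did. Each list's median fold enrichment, an authors' value, was divided by the median on the rest of the same list, which gave 0.990 ± 0.0135 for all segments, 1.00 ± 0.0199 on 1q, 0.998 ± 0.00770 on 2p, 1.01 ± 0.0217 on chromosome 7 and 0.910 ± 0.00496 on 17q (SD, n = 6). Peaks of 17q had a lower median fold than the rest in 6 of 6 libraries, as had those of 8 of the 21 other blocks, with 0.871 ± 0.0179 on the rest of chromosome 17, 0.803 ± 0.0250 on chromosome 19 and 0.881 ± 0.0278 on chromosome 22. On chromosome 7 the ratio was 0.992 ± 0.0143 in the controls and 1.03 ± 0.0108 in the knockdowns, without overlap (exact permutation p = 0.1, adjusted 0.167). Such a lack of overlap occurred in 32% of the 25 blocks.

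Regions found in 3 of 3 libraries of 1 group and 0 of 3 of the other were 589 control-only members (1.75%) and 352 knockdown-only members (1.04%). Over all merged regions of chromosomes 1 to 22 the shares were 1.95% and 1.06%, so the segments lay near the background in both directions. Control-only and knockdown-only members numbered 177 and 94 on 1q, 105 and 75 on 2p, 210 and 142 on chromosome 7, and 97 and 41 on 17q. The order turned when control 2, the longest list, was left out, with 797 control-only and 1255 knockdown-only members. It also turned, by few members, without knockdown 2. Without control 1 the counts were 1074 and 459, without control 3 they were 923 and 445, and without knockdown 1, 2 or 3 they were 955 and 550, 785 and 793, and 913 and 595. With a library left out, counts were made on the segments alone, so no background stands beside them.

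The longest knockdown-only member of all 4 segments was 2010 bp at chr7:50564179-50566188, across the start of DDC. The longest control-only member was 1706 bp at chr7:55064430-55066135 in EGFR, with an authors' fold enrichment of 3.94, 3.92 and 5.46 in controls 1 to 3. On 1q the longest knockdown-only member lay in NUP210L (chr1:154051335-154052755), and the next in KCNH1 (chr1:211023914-211025079), a potassium channel gene. On 2p the second longest lay in ALK (chr2:29417620-29418712), and on 17q the longest control-only member lay in SMURF2 (chr17:64616871-64618294), a ubiquitin ligase gene, and the longest knockdown-only member in MSI2 (chr17:57499624-57500587). Among the 2169 segment promoters there were 7 control-only cases (S100A2, RGS16, NIBAN1, TMEM168, RARRES2, ASIC3 and ENGASE) and 1 knockdown-only case (DDC). Over all 15101 promoters matched the counts were 66 and 6.

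Gene coverage was compared with limma on log2(percent covered + 1), after centring each library on its median, over 10077 genes, 1492 of them on the segments. On the segments 3 genes were called higher in the knockdown and 8 lower at an adjusted p under 0.05, or 0.20% and 0.54% of those tested. Over all genes 0.179% were called higher and 0.506% lower, so the segments were again near the background. The median log2 difference was 0.05 on the segments and 0.01 on the rest, measured against a shift of -0.08 between the groups that centring removed. By segment the median was 0.04 on 1q, 0.08 on 2p, 0.08 on chromosome 7 and 0.00 on 17q.

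On 1q, CRABP2 fell. This gene, which encodes a carrier of retinoic acid, had 35.4%, 43.0% and 31.4% of its length under peaks in the control libraries and 6.59%, 5.97% and 6.89% in the knockdown libraries, and the groups lay far apart (log2 difference -2.22, SE 0.10, limma adjusted p = 0.0021). Its promoter, printed above, kept a peak in all 6 libraries. EFNA3, an ephrin that guides axons, had 13.4%, 8.49% and 7.84% in the controls and 0 in each knockdown library (adjusted p = 0.00522). SLAMF8, an immune receptor gene, had 8.38%, 5.58% and 8.98% in the controls and 0 in each knockdown library (adjusted p = 0.00844). KCNH1 rose, from 5.67%, 7.75% and 6.51% to 13.0%, 10.2% and 11.8% (log2 difference 0.83, SE 0.11, adjusted p = 0.0268). The CRABP2 call held without any 1 library but was lost with the stricter peak threshold, a −log10 q-value of at least 5 (adjusted p = 0.136, with a range of 0.00147 to 0.136 over its alternatives). That threshold also ended the SLAMF8 call (0.348, range 0.0042 to 0.348), as did lists of equal length (0.338), and the KCNH1 call was lost without centring (0.123, range 0.0228 to 0.239). Without control 3, limma gave an adjusted p of 0.0552 for EFNA3, 0.0791 for SLAMF8 and 0.113 for KCNH1, and KCNH1 was also lost without control 1 (0.0502), knockdown 1 (0.103), knockdown 2 (0.0992) or knockdown 3 (0.109).

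On 2p, PCARE, a gene of photoreceptor cilia that lies near ALK, fell from 32.0%, 32.0% and 31.1% to 16.2%, 14.8% and 18.0% (log2 difference -0.82, SE 0.12, limma adjusted p = 0.0383). Its promoter also lay under a peak in all 6 libraries. Leaving out control 1, control 3 or knockdown 1, 2 or 3 raised the adjusted p to 0.113, 0.185, 0.103, 0.124 and 0.0839. It was 0.0988 with the stricter peak threshold and 0.0665 with a pseudocount of 0.25, and ranged from 0.0109 to 0.239 over all alternatives. EPAS1, the hypoxia factor HIF2A of this segment, stood at 20.4%, 22.2% and 21.8% in the controls and 32.1%, 26.6% and 32.2% in the knockdowns, without overlap, but did not pass the test (adjusted p = 0.0814). Nor did ODC1, the enzyme that begins polyamine synthesis, at 26.1% ± 4.65 in the controls and 12.03% ± 6.34 in the knockdowns (SD, n = 3; limma adjusted p = 0.345).

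On chromosome 7, IGFBP1, an insulin-like growth factor binding protein gene, had 13.2%, 8.16% and 8.25% in the controls and 0 in each knockdown library (limma adjusted p = 0.00522). BUD31, a splicing factor gene, had 4.05%, 4.05% and 3.06% in the controls and again 0 in each knockdown library (adjusted p = 0.0160). AIMP2, a scaffold of the tRNA synthetase complex, went the other way, with 0 in each control and 3.13%, 4.83% and 3.93% in the knockdowns (adjusted p = 0.0205). ZNF789, a zinc finger gene near BUD31, rose from 2.39%, 2.87% and 2.26% to 5.82%, 5.14% and 6.54% (log2 difference 1.06, SE 0.13, adjusted p = 0.0252). Without control 3 limma gave adjusted p = 0.0619 for IGFBP1, 0.125 for BUD31, 0.0812 for AIMP2 and 0.134 for ZNF789. BUD31 was also lost without control 1 (0.0947) or control 2 (0.0636), AIMP2 without control 1 (0.0501), knockdown 2 (0.107) or knockdown 3 (0.1003), and ZNF789 without control 1 (0.0524) or knockdown 1, 2 or 3 (0.0615, 0.0904 and 0.10002). Lists of equal length ended the IGFBP1 call (0.343, range 0.00353 to 0.343), and ZNF789 was lost without centring (0.0582) and with the stricter threshold (0.263, range 0.0208 to 0.263). AIMP2 was tested in 12 alternatives, against 14 for the other called genes. With the stricter threshold and with lists of equal length its mean coverage was below the 1% minimum, so it was not tested there. DDC did not pass the test over its whole body, at 21.2%, 22.8% and 20.3% in the controls and 26.0%, 25.6% and 25.6% in the knockdowns (adjusted p = 0.233). NPY, the neuropeptide Y gene, stood at 33.2% ± 8.15 and 17.7% ± 5.04 (SD, n = 3; limma adjusted p = 0.173).

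On 17q both calls were losses to 0. ATP5PD, which encodes a subunit of the mitochondrial ATP synthase, had 4.01%, 6.73% and 4.37% in the controls and 0 in each knockdown library (limma adjusted p = 0.00771, and 0.0793 without control 3). Lists of equal length also ended this call (adjusted p = 0.368, range 0.00444 to 0.368). LOC124904094, a coding gene model without a name, had 7.86%, 7.84% and 5.60% in the controls and 0 in each knockdown library (adjusted p = 0.00468), and its call held without any 1 library. For genes at 0 in a group no fold is given, since 0 means that no peak was called. These are EFNA3, SLAMF8, IGFBP1, BUD31, AIMP2, ATP5PD and LOC124904094. They passed the 1% coverage minimum only through the group with peaks and were 0 in every library of the other. Their adjusted p-values therefore restate the presence or absence of called peaks and are no separate evidence of a change in 5hmC.

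**Figure D5:**
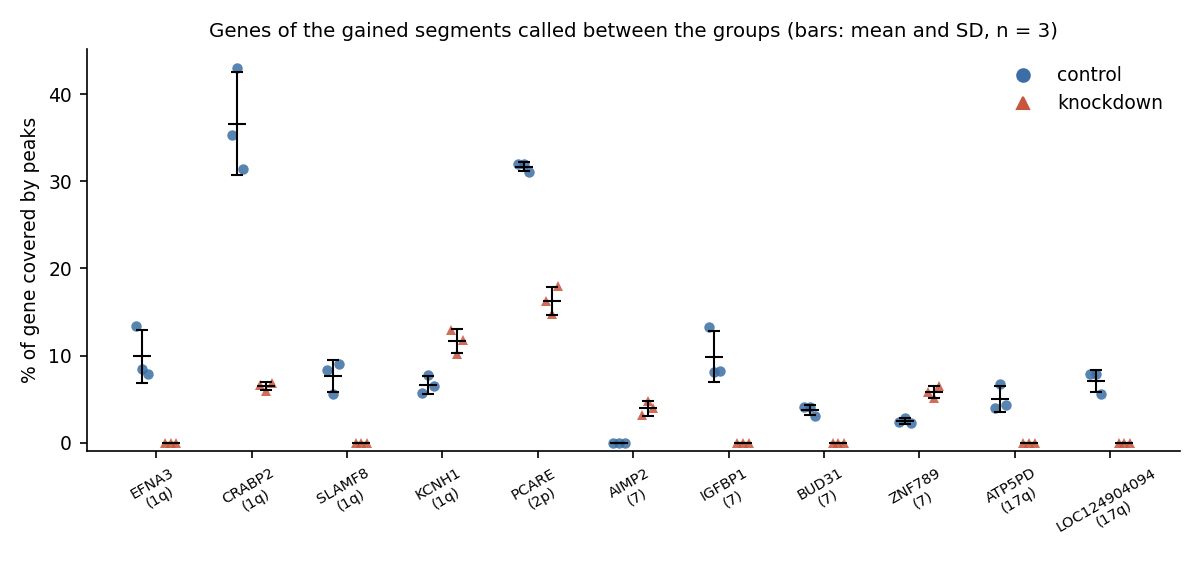
Percent of gene length covered by peaks (y axis) in each control (circles) and knockdown (triangles) library for the 11 genes called on the segments, with bars for the mean and SD of 3. EFNA3, SLAMF8, IGFBP1, BUD31, ATP5PD and LOC124904094 are at 0 in every knockdown library, AIMP2 is at 0 in every control, and CRABP2 shows the widest gap, 36.6% against 6.48%.

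The list of 63 genes held 2 of these calls, KCNH1 higher and CRABP2 lower. Over all 10077 genes tested, 18 were called higher and 51 lower. The list was chosen with earlier results of these data known, so the 2 calls are not an independent result about it. The median log2 difference of the list was 0.10 over its 47 tested genes, against 0.02 over all genes tested. Differences were positive in 30 and negative in 17, against 5260 and 4817 over all genes tested. On chromosome 7 the split was 11 and 2, against 330 and 201 over all its tested genes, with CDK6 at 0.42, GRM8 at 0.65 and BRAF at 0.26, none of which passed the test (limma adjusted p = 0.365, 0.277 and 0.662).

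The same test over 17510 windows of 100 kb called 3 windows on the segments, 1 higher and 2 lower among 2637. Over all windows 0.0286% were called higher and 0.0514% lower. The window chr1:211000001-211100000 in KCNH1 rose from 1.82%, 2.79% and 2.38% covered to 6.22%, 4.83% and 5.27% (limma adjusted p = 0.0358). The window chr17:79100001-79200000 in RBFOX3, the gene of the neuronal marker NeuN, fell from 11.9%, 9.11% and 9.42% to 3.97%, 3.72% and 3.95% (adjusted p = 0.0436), while the whole gene did not pass (adjusted p = 0.370). A window without coding genes near the end of chromosome 7 (chr7:159200001-159300000) fell from 4.93%, 6.36% and 5.44% to 2.62%, 2.201% and 2.08% (adjusted p = 0.0436). Each of the 3 calls was lost without control 3, with limma adjusted p of 0.272, 0.286 and 0.368 in the order named, and without any 1 knockdown library (0.191 to 0.252 for KCNH1, 0.203 to 0.252 for RBFOX3 and 0.205 to 0.225 for the chromosome 7 window). Without control 1 the segments had 24 higher and 13 lower windows, and without control 2 they had 216 and 103. Over all windows the counts were 91 and 72 without control 1 and 1016 and 852 without control 2, so calls rose across all chromosomes in these settings. All 3 calls were also lost with a pseudocount of 0.25 or without centring, where no window of the segments was called. The KCNH1 window was lost with the stricter peak threshold (0.0622) and with lists of equal length (0.0518), as was the chromosome 7 window with lists of equal length (0.0525). The adjusted p ranged over the alternatives from 0.0055 to 0.272 for KCNH1, from 0.000614 to 0.286 for RBFOX3 and from 0.00612 to 0.368 for the chromosome 7 window.

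Window medians differed in sign among segments. The median log2 difference was 0.07 on chromosome 7, 0.04 on 1q, 0.04 on 2p and -0.05 on 17q, against 0.00 on the rest. Positive differences were found in 58.0% of chromosome 7 windows and in 41.9% of 17q windows. The density ratio was 1.26 ± 0.0470 and 1.31 ± 0.0133 on chromosome 7 and 1.83 ± 0.156 and 1.78 ± 0.0673 on 17q, in control and knockdown (SD, n = 3). Standardised on gene number, the 17q ratio was 1.62 ± 0.0529 and 1.64 ± 0.0454, a log2 difference of 0.01, and without control 1 the unstandardised difference was 0.02, so the sign on 17q was not stable.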

How the data were processed

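5hmC pulldown (hMe-Seal) peak lists of 3 shNC and 3 shTDP43 libraries were used, 1 list per library, and the input library was not analysed here. The submitters' processing notes name hg38, MACS2 2.2.6, Bowtie2 2.4.4 and SAMtools, without a role for each. Whether input served as the control for peak calling is not given in the sources used here. The deposited lists give for each peak the authors' score, their fold enrichment (a ratio signal) and the −log10 of its p-value and of its q-value, used within a list to describe or filter peaks. Everything else was computed from peak positions with Python 3.11.15, pandas 2.3.3, scipy 1.17.1 and, in R 4.3.3, limma 3.58.1, with RefSeq genes, promoters and microRNAs of GRCh38.p14. limma was run with a trend on log2(percent covered + 1), median-centred, for coding genes of at least 5 kb and 100-kb windows with a mean coverage of at least 1%, with Benjamini-Hochberg adjustment over all. The scripts were tested on simulated data.

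Overlapping genes count shared peaks for each gene. Genes named were those called, the 5 most covered per segment, a list of known genes, and genes at the longest members and the densest and sparsest windows. The second longest members, and MIR25, MIR106B, MIR338 and MIR3065 among the hairpins under peaks, were chosen after their values were seen. Segments, genes and lists were chosen with earlier results of these data known. Values of 2 listed genes are not reported here. Alternatives were a −log10 q-value of at least 5, equal list lengths, covered bases, other lengths, references, joins, pseudocounts, filters and centring, each library left out, and the replicate number as a block.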

Additional observations from a re-analysis of the deposited data

Results flagged for a closer look

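Of the 5 ratios of peak height, 1 had every control library below 1 and every knockdown library above it. On 1q, the median fold enrichment of peaks divided by that of the rest of the same list had values of 0.976, 0.99955 and 0.982 in the control libraries and 1.02, 1.02 and 1.01 in the knockdown libraries. The difference of the means, knockdown minus control, was 0.0321, with a two-sided exact permutation p of 0.1 (adjusted 0.167), the smallest that 3 against 3 can give. Of the 25 blocks 32% did not overlap between the groups in this ratio, so 1q is not set apart by it.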

How the results depend on the processing

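The density ratio of segment to rest stayed above 1 under every alternative run. For all segments, 1q and 2p it was 1.468, 1.365 and 1.840 with the stricter peak threshold, 1.509, 1.363 and 1.924 in covered bases, 1.498, 1.415 and 1.892 with every window counted, and 1.336, 1.248 and 1.669 against the rest of chromosomes 1, 2 and 17. That reference gave 1.194 on chromosome 7 and 1.677 on 17q, and covered bases gave 2.074 on 17q. The standardised ratio moved to 1.411 with the stricter threshold and 1.443 in covered bases for all segments. In covered bases it was 1.928 on 2p, 1.295 on chromosome 7 and 1.838 on 17q, and on 17q it was 1.699 with the stricter threshold and 1.679 with equal lists. In covered bases the log2 difference between groups was 0.05834 for all segments and 0.06632 on 1q. The cause of these moves was not tested.

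With 1 library left out, control-only members ranged from 785 to 1074 and knockdown-only members from 445 to 1255. Fewer lists are then required, which raises both counts. Called genes ranged from 0 to 8 higher and from 2 to 14 lower, against 4 to 37 and 9 to 71 over all genes. Called windows ranged from 0 to 216 higher and from 0 to 103 lower, against 0 to 1016 and 0 to 852 over all windows. The counts thus varied across all chromosomes and not on the segments alone. The 17q density difference was 0.01677 without control 1 and -0.1066 without control 2.

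Genes called higher and lower numbered 1 and 16 without centring (13 and 95 over all genes), and 7 and 14 with equal lists (30 and 71). Quantile normalization gave 5 higher genes (25 over all) and the stricter threshold 14 lower (97). Windows called higher and lower were 4 and 4 with a pseudocount of 4 (15 and 19 over all windows), 3 and 5 without the coverage filter (10 and 23), 23 and 12 with quantile normalization (87 and 124), and 2 and 1 with equal lists (9 and 8), and the stricter threshold gave 5 lower (38). With a pseudocount of 0.25 limma called 0 and 0 windows (235 and 142 at an unadjusted p under 0.05), and without centring 0 and 0 (78 and 187).

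Samples with the same replicate number did not deviate together (correlations over genes of -0.125, -0.0817 and -0.0143). This gives no sign of pairing by number, but deviations from means of 3 libraries cannot exclude it. Over the density ratios of the 25 blocks the same correlations were -0.904, -0.777 and -0.243. The longest lists of each group, control 2 and knockdown 1, had a correlation of 0.940. The shortest, control 1 and knockdown 2, had 0.734, and the part of list length in this was not tested. With the replicate block limma called 0 higher and 0 lower genes (66 and 83 at an unadjusted p under 0.05) and 0 higher and 0 lower windows (174 and 118). The density differences between groups could not change under the block, since the mean of the pair differences equals the difference of the group means. For all segments it was 0.03 (exact sign-flip permutation p = 0.25, the smallest that 3 pairs can give).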
